A study of Mus musculus with 50 samples.

Results

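The genes described here are 41 members of the fatty acid oxidation programme that the nuclear receptor PPAR-alpha governs, chosen by name from what they are known to do, with earlier results of these data known. All 41 were found among the 45792 rows of a table of read counts per gene, and all 41 had enough counts to be tested in each of 7 comparisons. They fall in 10 roles: 3 regulators, 1 hormone, 3 genes of the carnitine shuttle, 10 of mitochondrial beta-oxidation, 3 of electron transfer, 9 of the peroxisome, 3 omega-hydroxylases, 4 acyl-CoA thioesterases, 1 gene of ketone body metabolism and 4 other responsive genes.

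PPAR-alpha binds fatty acids and their derivatives and, paired with the retinoid X receptor, binds direct repeats of a short DNA element near the genes it controls. In liver it is best known for the response to fasting and to dietary fat, when fatty acids are activated to acyl-CoA, carried into mitochondria on carnitine and shortened by beta-oxidation, with the electrons passed on through flavoproteins. Peroxisomes shorten the chains that mitochondria handle poorly, omega-hydroxylases of the Cyp4a family open a further route, and the hepatokine Fgf21 and ketone bodies signal and carry the product to other tissues.

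The samples were RNA-seq libraries of non-tumour liver and liver tumour from male C3H/He mice, with tissue taken at 48 weeks. The study's methods describe a glucose tolerance test in fasted animals before killing for the mice without carcinogen, and do not describe the others. Non-tumour liver came from 12 mice on control diet (N1 to N12) and 11 on the ALIOS diet (N13 to N23), a diet high in trans-fat with fructose in the drinking water. N12 is labelled as control diet and was used so, and a heatmap legend of the study also counts it with the controls. The legend to the study's clustering lists N12 under both diets, and values that change without it are given. Tumours that arose without a carcinogen, called spontaneous here, came from 12 mice on ALIOS diet (T2 to T6 and T8 to T14) and 1 on control diet (T7). Tumours of mice that also received diethylnitrosamine (DEN), a carcinogen activated in hepatocytes, numbered 8 on ALIOS diet (T15, T16 and T22 to T27) and 5 on control diet (T17 to T21), and the labels do not say whether each came from a different mouse. No non-tumour liver of a DEN mouse was sequenced, so what DEN did and what the tumour tissue holds cannot be told apart, and the labels give no dose. The tissue is whole, so every value is an average over the cell types present.

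Library totals ran from 23798251 to 45751398 counted reads, and the group medians lay close together, from 30763687 in ALIOS livers to 34728970 in DEN tumours on ALIOS diet. Levels are given as CPM, counts per 10 to the power 6 reads after scaling the libraries for composition by the TMM method. The liver label was met in the 49 libraries used: Alb, the most abundant hepatocyte marker, averaged 107454 CPM. A further tumour library, T1, was left out, since its Alb level was 24.6 CPM and its summed kidney tubule markers reached 29768.5 CPM, against a median of 4.86 CPM in the spontaneous tumours kept.

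**Figure D1:**
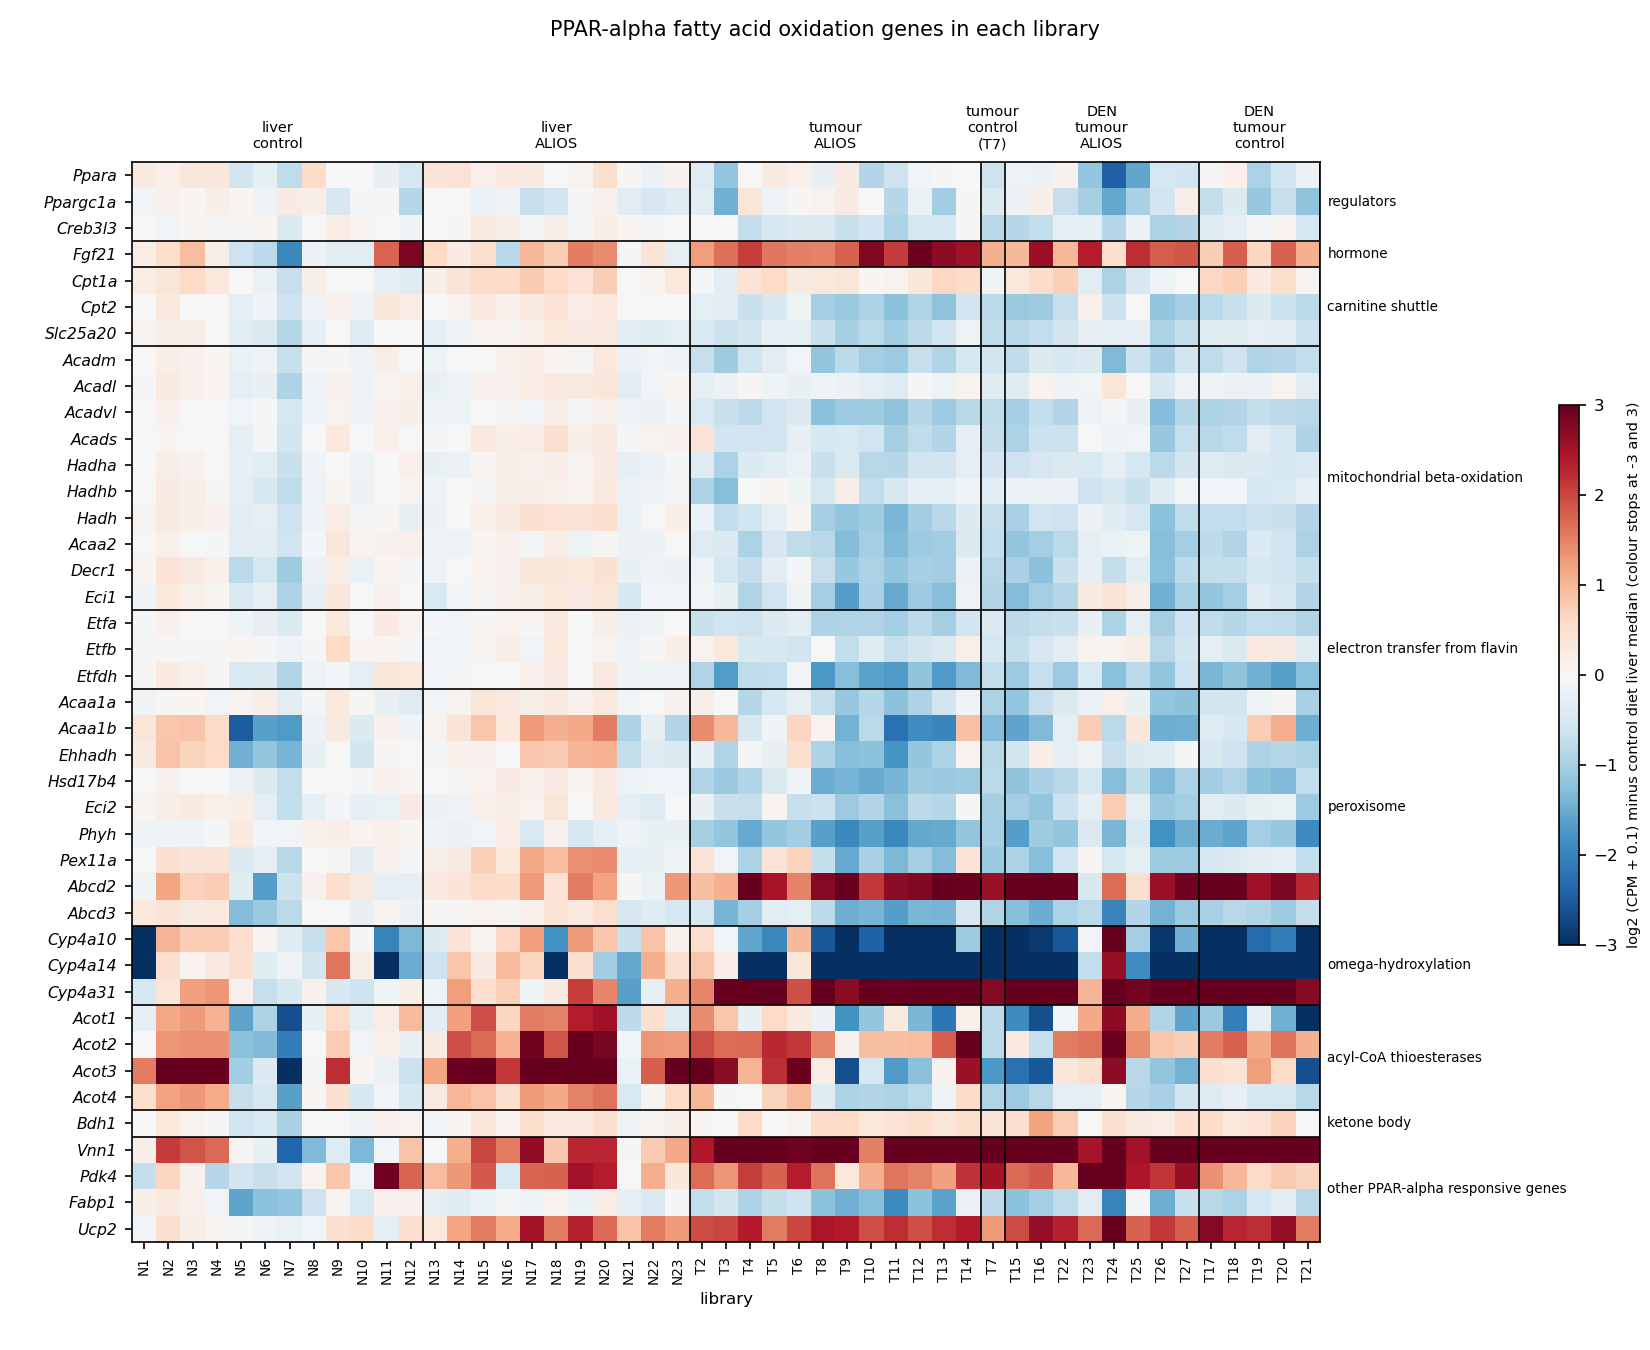
Level of each member (rows, by role) in each of 49 libraries (columns, by group), as log2 CPM minus the median of the control diet livers, with the colour scale stopping at -3 and 3. Most members of mitochondrial and peroxisomal oxidation are bluer in the tumour columns, while Abcd2, Cyp4a31, Vnn1 and Ucp2 are redder.

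Within control diet liver, the members' levels were compared per length, as CPM per kilobase of the longest transcript. Fabp1, the cytosolic fatty acid binding protein, stood far above the rest with a median of 13522 CPM per kilobase. Next came Phyh, the peroxisomal hydroxylase that starts phytanic acid breakdown, at 1128 CPM per kilobase, and Acaa2, the mitochondrial thiolase, at 533 CPM per kilobase. Etfb (349 CPM per kilobase) and the peroxisomal thiolase Acaa1b (290.4 CPM per kilobase) followed. The ranges of Acaa2, Etfb and Acaa1b over the 12 livers overlapped, so their order is not resolved. Of the regulators, the membrane-bound factor Creb3l3 had the highest level, 134 CPM per kilobase, with Ppara itself at 48.2 and the coactivator Ppargc1a at 2.53 CPM per kilobase. The omega-hydroxylase Cyp4a31 had the lowest median of all 41, 0.178 CPM per kilobase, though its range overlapped those of Acot3, Acot2, Acot1 and Vnn1. Lengths from the union of exons moved 19 of the 41 medians past their spread, while Fabp1, Phyh and Acaa2 kept the top of the order and Cyp4a31 the bottom.

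Several members are close neighbours in the genome, and some are near copies of one another. Acot2, Acot1, Acot4 and Acot3 lie side by side on chromosome 12, and Cyp4a14, Cyp4a10 and Cyp4a31 lie in the Cyp4a cluster on chromosome 4. Hadha and Hadhb, which encode the alpha and beta subunits of the mitochondrial trifunctional protein, are transcribed away from each other on chromosome 5 with 86 bases between their starts. Acaa1a and Acaa1b, the 2 peroxisomal thiolases, share most of their sequence on chromosome 9. Reads that fit more than 1 of such copies equally well are hard to place, so the split between copies is less certain than their joint level.

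Since more members fell than rose in the tumours described below, the RefSeq promoters (build GRCm38.p6, reference strain C57BL/6J and not C3H) were searched for the element PPAR-alpha is known to bind. The motif was AGGTCANAGGTCA, a direct repeat of AGGTCA with 1 base between, on both strands, in the 250 bases before each start, with at most 2 of the 12 fixed letters different. A promoter was at hand for 33 of the 41 members, and 4 of them held a match (Acot4, Creb3l3, Etfa and Fabp1), 12.1%, against 1005 of 27025 genes in all, 3.72%. The 8 members without a promoter were not searched: Acaa2, Decr1, Hsd17b4, Abcd2, Cyp4a10, Cyp4a14, Cyp4a31 and Vnn1. With at most 1 letter different only Fabp1 remained among members (3.03%, against 0.566% of all genes), and an exact match was found in 0 members and 11 genes. The single unit AGGTCA, which is part of the repeat, stood in 6 of 33 members (18.2%) and in 15.8% of all genes. Fabp1, Etfa and Acot4 come from 3 different roles, and each was lower in spontaneous tumours than in ALIOS liver. Their promoters are shown with the best match in capitals, each read in the direction of the gene. They lie at chr6:71199629-71199826 on the plus strand, chr9:55512244-55512493 on the minus strand and chr12:84038129-84038378 on the plus strand. In all 3 the repeat reads on the strand opposite to the gene, with 1 letter different in Fabp1 and 2 in Etfa and Acot4. The match of Creb3l3, not shown, has 2 letters different, reads on the strand of the gene and lies in an annotated intron of Creb3l3. For Fabp1 the stretch shown is the 198 bases that hold the match and lie outside annotated exons, out of the 250 searched. These matches describe letters only and say nothing of binding.
Fabp1: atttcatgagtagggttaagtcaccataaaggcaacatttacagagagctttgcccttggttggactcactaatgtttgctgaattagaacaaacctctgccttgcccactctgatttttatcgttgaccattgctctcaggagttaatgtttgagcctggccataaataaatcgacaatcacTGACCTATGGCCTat
Etfa: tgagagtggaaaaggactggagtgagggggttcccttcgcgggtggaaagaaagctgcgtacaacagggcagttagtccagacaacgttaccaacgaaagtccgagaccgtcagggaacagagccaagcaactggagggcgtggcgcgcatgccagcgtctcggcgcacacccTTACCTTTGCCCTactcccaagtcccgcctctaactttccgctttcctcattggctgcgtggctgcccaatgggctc
Acot4: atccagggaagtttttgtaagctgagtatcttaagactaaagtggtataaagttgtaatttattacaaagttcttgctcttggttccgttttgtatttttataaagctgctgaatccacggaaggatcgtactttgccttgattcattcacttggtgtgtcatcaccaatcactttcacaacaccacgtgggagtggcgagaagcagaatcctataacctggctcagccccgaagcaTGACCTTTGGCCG

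In non-tumour liver 4 members were higher on the ALIOS diet than on control diet. Ucp2, Acot2, Pex11a and Cpt1a rose, each at an adjusted p under 0.05 in the quasi-likelihood test of edgeR, with p-values adjusted over all genes tested. That was 4 of 41 members called higher, where 6.73% of all 13723 genes were called higher, so the share is near the background. The median log2 fold over the members was 0.16, against -0.02 over all genes, and without control liver N7 it was 0.11, against -0.03. Of the members 34 of 41 lay above 0, against 6193 of 13723 genes. None was called lower by edgeR (0 of 41, against 4.51% of all genes), with 13 of 41 members under an unadjusted p of 0.05 in either direction, near the share over all genes, 4024 of 13723. DESeq2 called 1 member lower, Phyh, at a log2 fold of -0.21 and an adjusted p of 0.038.

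Ucp2, an inner mitochondrial membrane carrier of the uncoupling protein family, was the clearest of these. Its lowest, median and highest levels were 15.7, 19.4 and 28.6 CPM in control livers and 24.2, 56.9 and 109 CPM in ALIOS livers. Only N13, the lowest ALIOS liver, fell inside the control range. The log2 fold was 1.41 (95% interval 1.01 to 1.80, adjusted p = 0.000207), with 11 of 11 ALIOS livers above the control median.

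The 4 thioesterases, which split acyl-CoA back into fatty acid and coenzyme A, had a median fold of 2.46, and all 4 lay above 1. Acot2, the mitochondrial form, ran 0.384, 1.93 and 5.13 CPM in control livers and 1.83, 6.53 and 18.9 CPM in ALIOS livers. The groups overlapped at their edges, with N20, N17 and N19 far above every control liver and N21 below the control median. Its log2 fold was 1.67 (95% interval 0.81 to 2.53, adjusted p = 0.014), with 10 of 11 ALIOS livers above the control median. Acot1, the cytosolic form, had medians of 2.96 and 7.01 CPM and a log2 fold of 1.04 that did not pass (adjusted p = 0.106). The peroxisomal Acot3 had the widest range of the 4, from 0.160 to 34.7 CPM in control livers and 2.20 to 71.3 CPM in ALIOS livers, and did not pass either (log2 fold 1.56, adjusted p = 0.113).

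Cpt1a, which makes the acylcarnitine that enters mitochondria and is the controlled step of the shuttle, ran 273, 439 and 658 CPM in control livers and 438, 594 and 753 CPM in ALIOS livers. The ranges overlapped over most of their length, though 10 of 11 ALIOS livers lay above the control median (log2 fold 0.38, 95% interval 0.12 to 0.63, adjusted p = 0.0475). Pex11a, a membrane protein that promotes peroxisome division, had medians of 63.9 and 79.1 CPM, with 8 of 11 ALIOS livers above the control median (log2 fold 0.62, adjusted p = 0.0451). Both calls were near the threshold and were lost without N7, at log2 fold 0.32 and adjusted p 0.0799 for Cpt1a and 0.56 and 0.0774 for Pex11a. They were also lost with no filter on low counts (0.0666 and 0.0558), with all groups in a joint fit (0.113 and 0.115) and without N12 (0.0712 and 0.0593), which brings the count of members called higher to 2 in each case.

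The other members followed through all comparisons did not pass in liver. Ppara had a median of 165 CPM in control and 184 CPM in ALIOS livers (log2 fold 0.18, adjusted p = 0.359). The log2 fold was 0.20 for the omega-hydroxylase Cyp4a14, 0.35 for its neighbour Cyp4a10 and 0.33 for Ehhadh, the bifunctional enzyme of peroxisomal beta-oxidation. Vnn1, a pantetheinase that frees the coenzyme A precursor pantothenate, had a log2 fold of 0.91 (adjusted p = 0.169), Pdk4, the kinase that shuts pyruvate dehydrogenase, 0.72, and Fgf21 -0.12 (0.38 without N12, adjusted p = 0.467). None of the 10 genes of mitochondrial beta-oxidation and none of the 3 of electron transfer passed in either direction.

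**Figure D2:**
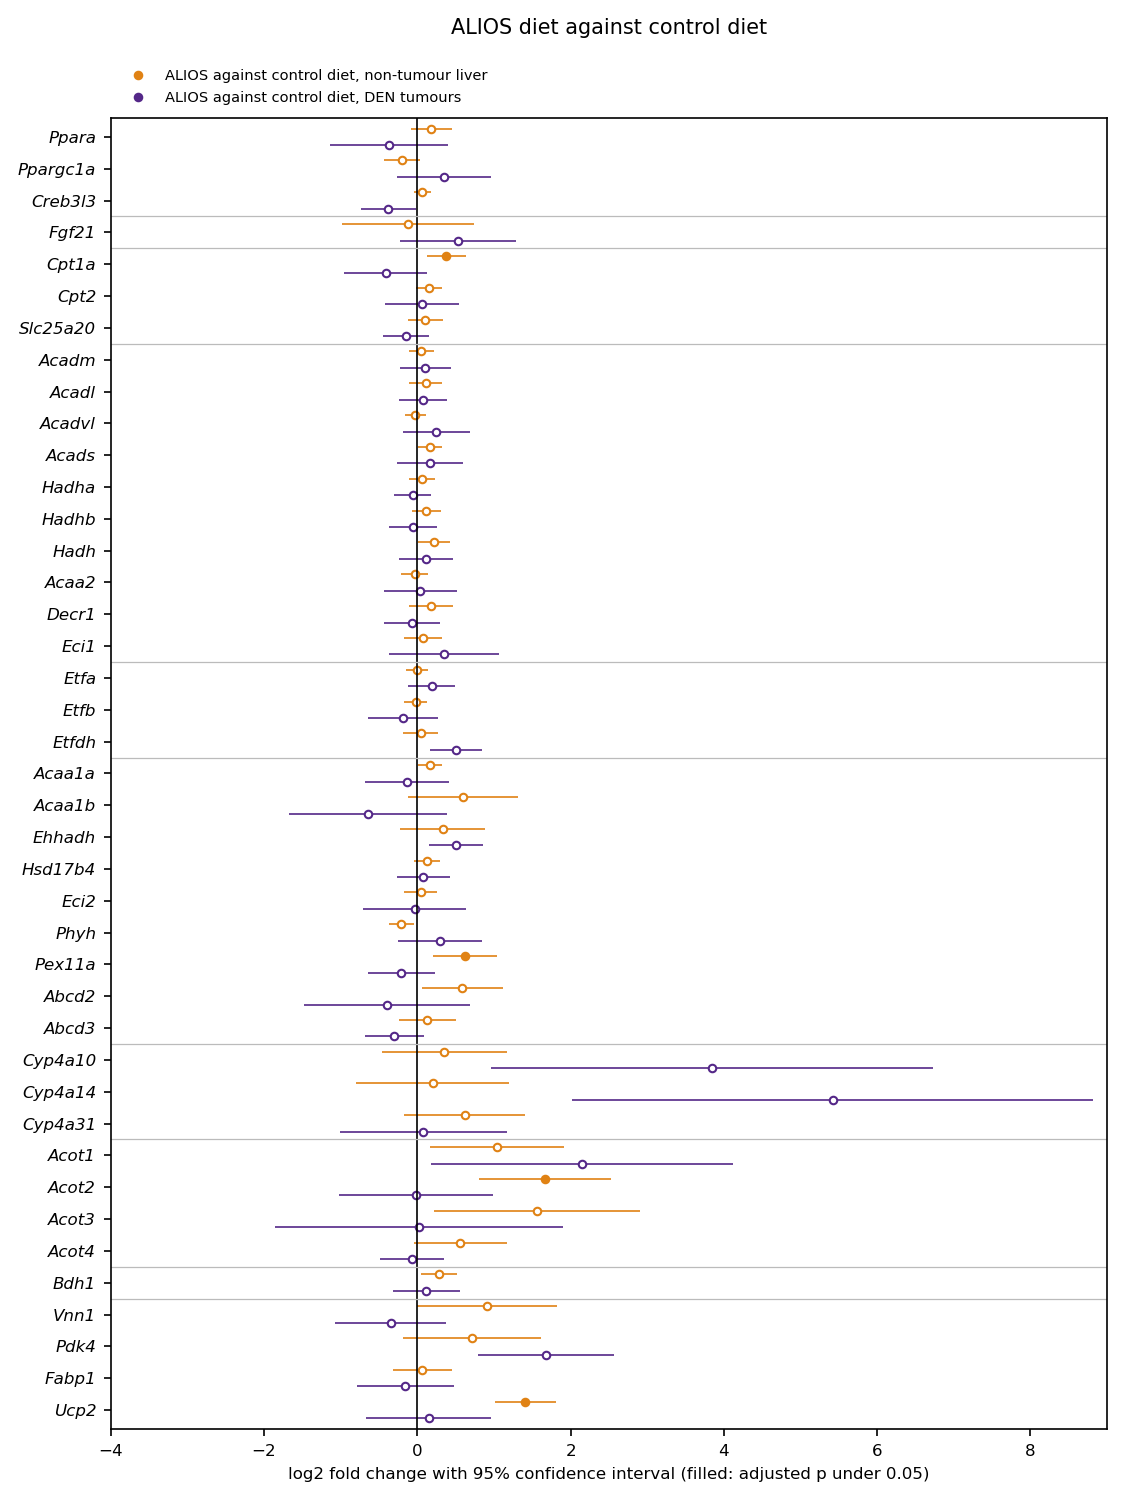
Log2 fold of ALIOS over control diet for each of 41 members, with 95% interval, in non-tumour liver and in DEN tumours, with filled points at adjusted p under 0.05. Intervals in DEN tumours, with 8 and 5 samples, are mostly wider, and the 4 filled points are all in liver.

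Livers of the same diet differed widely among themselves. N7 had the lowest level of the 12 control livers in 28 of 41 members, and N2 the highest in 14. On ALIOS diet, N21 was lowest of 11 in 22 members and N20 highest in 19. Ehhadh ran from 96.4 to 480.0 CPM in control livers and 161 to 545 CPM in ALIOS livers, with N5 and N21 lowest and N2 and N20 highest. Cyp4a14 sorted the livers another way, since N1 and N11 (1.33 and 2.19 CPM) and N18 (1.84 CPM) were lowest, against group medians of 22.7 and 32.0 CPM. Fgf21 reached 53.8 CPM in N12, a liver whose diet is given in 2 ways as said above, and 25.3 CPM in N11, against a control median of 7.53 CPM. Pdk4 was also high in N11 and N12, at 27.7 and 12.3 CPM, against a median of 3.61 CPM.

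Ppara and its targets were set side by side across livers, 8 targets within each diet, a family of 16 correlations of log2 CPM. Over the 12 control livers Ppara rose and fell with Cpt1a (r = 0.838, permutation p = 0.00067, adjusted p = 0.0107). By rank the relation was rho = 0.776 with permutation p = 0.00448 and an adjusted p of 0.0717, and without the 2 livers farthest out, N7 and N5, r was 0.849. For Ehhadh r was 0.706 (permutation p = 0.0119, adjusted p = 0.095), and it was 0.430 without N7 and N5. For Cyp4a10 and Cyp4a14 r was 0.0267 and -0.0291 there, and 0.151 and 0.155 without N7 and N5, which in 12 livers does not show that a relation is absent. Over the 11 ALIOS livers no target passed, with r between 0.104 and 0.447 and a smallest adjusted p of 0.674. Without the 2 ALIOS livers farthest out, N22 and N20, r ran from -0.185 (Fgf21) to 0.590 (Cyp4a14), with Cpt1a at 0.0431. In all, 1 of 16 passed by r and 0 by rho, while with counts over DESeq2 size factors Cpt1a in control livers passed by rank as well (rho = 0.818, permutation p = 0.00201, adjusted p = 0.0322). The difference between the diets in these correlations was not tested.

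**Figure D3:**
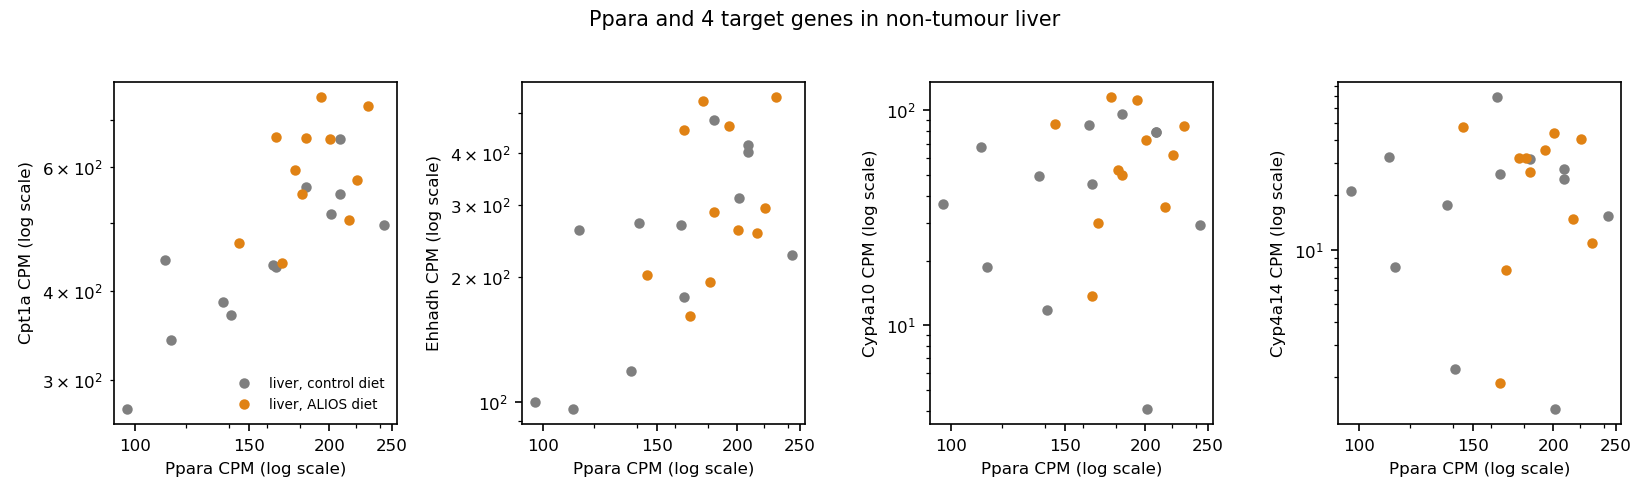
Level of Ppara (horizontal, CPM) against 4 of its targets (vertical, CPM) in each non-tumour liver, both on log axes and coloured by diet. Cpt1a climbs with Ppara in control livers, while Cyp4a10 and Cyp4a14 are scattered.

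In spontaneous tumours against non-tumour liver, both on ALIOS diet, most of the members were lower. Of 41 members 28 fell, where 25.9% of all 14183 genes were called lower, and 5 rose, where 26.9% were called higher. The median log2 fold was -0.68 over members and 0.01 over all genes. Those that rose were Abcd2, Cyp4a31, Vnn1, Fgf21 and Ucp2. Fewer cells of a type and less RNA per cell cannot be told apart in such whole tissue. The calls for Ppara, Cyp4a10 and a few members close to the threshold changed with the settings, as given beside them.

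DEN tumours on ALIOS diet were compared with the same 11 livers, so the values of these 2 comparisons share their controls and are given side by side without a count in common. In DEN tumours 23 of 41 members fell, where 19.8% of all 14434 genes did, and 7 rose, where 27.7% did. The median log2 fold was -0.53, against 0.08 over all genes. Library T24 stood apart here, and without it 28 members fell and 6 rose, against 3283 and 4327 of 14506 genes.

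DEN tumours on control diet were set against the 12 control diet livers, which gives a further contrast with none of those samples. There 18 of 41 members fell, where 24.4% of all 14731 genes did, and 7 rose, where 27.3% did. The median log2 fold was -0.40 over members and 0.03 over all genes. With only 5 tumours the counts moved as each was left out in turn, between 16 and 21 lower and between 5 and 7 higher. Over all genes these fits gave 3288 to 3815 lower and 3552 to 3892 higher. Without liver N7 there were 23 members lower, against 3608 of 14655 genes.

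**Figure D4:**
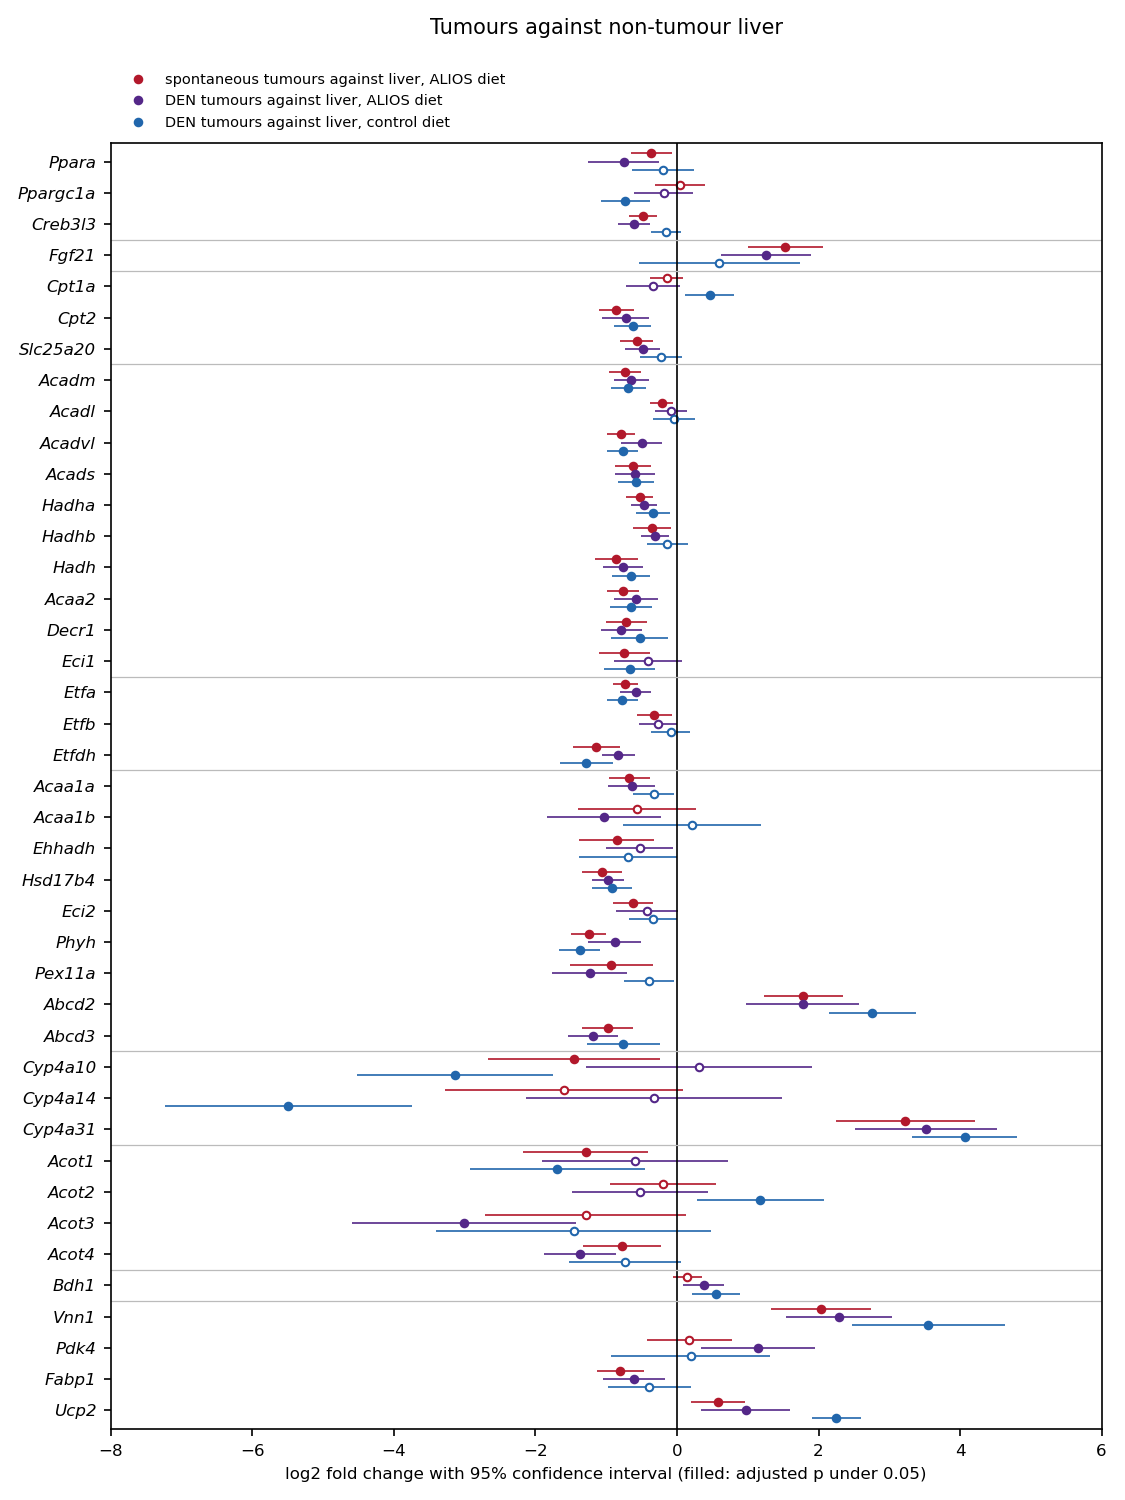
Log2 fold of tumour over non-tumour liver for each of 41 members, by role, with 95% interval, for spontaneous tumours and DEN tumours on ALIOS diet and DEN tumours on control diet, with filled points at adjusted p under 0.05. Genes of mitochondrial oxidation sit left of 0 in all 3 comparisons, and Cyp4a31, Vnn1 and Abcd2 far to the right.

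Among the regulators, Ppara ran 145, 184 and 230 CPM in ALIOS livers, 73.4, 156 and 198 CPM in spontaneous tumours and 30.3, 112 and 179 CPM in DEN tumours on that diet. The tumours reached lower than any ALIOS liver, with T24 lowest at 30.3 CPM, but the ranges overlapped. Ppara fell in spontaneous tumours by a log2 fold of -0.36 (adjusted p = 0.0317, lost at 0.0781 with no filter, 0.110 in a joint fit, 0.0597 with T1 put back and 0.0796 without T2, T3 and T6) and in DEN tumours by -0.76 (adjusted p = 0.0144). On control diet its levels in T17 to T21 were 168, 184, 85.4, 109.8 and 146 CPM, within the 97.2 to 243 CPM of control livers save for T19, and it did not pass (-0.20, adjusted p = 0.451). The difference between the diets in that contrast was -0.55 and did not pass (adjusted p = 0.408). Creb3l3, which works with PPAR-alpha on fasting genes, also fell in both tumour groups on ALIOS diet, in spontaneous tumours not with T1 put back (adjusted p = 0.307). Ppargc1a, a coactivator of oxidative genes, fell in DEN tumours on control diet (-0.73, adjusted p = 0.00112).

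Fgf21, the hormone of the set, was higher in tumours while most enzymes were lower. Its levels ran 4.17, 10.5 and 21.8 CPM in ALIOS livers, 17.97, 28.8 and 57.6 CPM in spontaneous tumours and 10.7, 26.8 and 44.4 CPM in DEN tumours on that diet. All spontaneous tumours lay above the ALIOS liver median, and 8 of 8 DEN tumours did, yet the ranges overlapped. The log2 fold was 1.53 (95% interval 0.999 to 2.06, adjusted p = 3.28e-05) in spontaneous and 1.26 (0.62 to 1.89, adjusted p = 0.00225) in DEN tumours. On control diet T17 to T21 held 12.6, 26.04, 11.8, 25.8 and 15.8 CPM, inside the control liver range of 1.89 to 53.8 CPM, and Fgf21 did not pass (0.60, adjusted p = 0.375). Without N12, the control liver at 53.8 CPM, it passed (1.11, adjusted p = 0.0276).

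In the carnitine shuttle all 3 genes had log2 folds under 0 in both tumour groups on ALIOS diet. In each group 2 passed, beside 25.9% of all genes called lower in spontaneous and 19.8% in DEN tumours. Cpt2, which hands the acyl group back to coenzyme A inside the mitochondrion, and Slc25a20, the carrier between them, both fell in spontaneous tumours and in DEN tumours on ALIOS diet. Cpt1a did not pass in either, at log2 folds of -0.14 and -0.34 (in DEN tumours -0.40 and adjusted p 0.0399 in a joint fit), with medians of 594 CPM in ALIOS livers, 549.5 CPM in spontaneous and 420.0 CPM in DEN tumours. In DEN tumours on control diet Cpt1a levels were 673, 719.6, 541, 636 and 466 CPM, all above the control liver median of 439 CPM. It rose there by a log2 fold of 0.46 (adjusted p = 0.026), a call lost without T17, T18 or T20 (adjusted p 0.0661, 0.0842 and 0.0743), with no filter (0.0522) and in a joint fit (0.0555). The difference between the diets was -0.80 and did not pass (adjusted p = 0.0847).

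Mitochondrial beta-oxidation was the most uniform role. All 10 genes fell in spontaneous tumours (25.9% of all genes), 8 in DEN tumours on ALIOS diet (19.8%) and 8 in DEN tumours on control diet (24.4%), and none rose. They include the chain-length dehydrogenases Acadvl, Acadl, Acadm and Acads, the trifunctional subunits Hadha and Hadhb, Hadh, the thiolase Acaa2, and Decr1 and Eci1, which deal with double bonds. The sum over the role had a median of 3490.6 CPM in ALIOS livers and 2027 CPM in spontaneous tumours, and no summed value of a tumour reached the liver median. The calls of Acadl and Hadhb in spontaneous tumours were lost with no filter (adjusted p 0.108 and 0.0653), that of Acadl also in a joint fit (0.0586) and with T1 put back (0.0682), those of both without T2, T3 and T6 (0.147 and 0.0873), and that of Decr1 in DEN tumours on control diet was lost without T17 or T18 (0.0586 and 0.0538).

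Acadvl, the very long chain dehydrogenase of the first step, is given as an example. It ran 401, 432 and 520.1 CPM in ALIOS livers and 192, 253 and 334 CPM in spontaneous tumours. No tumour reached the lowest liver. Acadvl fell by a log2 fold of -0.79 (95% interval -0.99 to -0.59, adjusted p = 9.11e-07), with 0 of 12 tumours above the liver median. In DEN tumours on ALIOS diet it ran 183, 262 and 432 CPM. Of these only T24 and T23 (432 and 410.04 CPM) reached the liver range, and T25 lay just under it at 389 CPM. The log2 fold of Acadvl there was -0.50 (adjusted p = 0.00677). In DEN tumours on control diet its levels were 233, 247, 276, 261 and 254 CPM, below all control livers (315, 453 and 508 CPM) by a log2 fold of -0.77 (adjusted p = 5.65e-06).

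The electron carriers downstream fell too. All 3 did in spontaneous tumours, beside 25.9% of all genes (Etfb not with no filter, adjusted p = 0.0743). Etfa and Etfdh did in each DEN group, beside 19.8% of all genes on ALIOS diet and 24.4% on control diet. Etfa, the alpha subunit of the electron transfer flavoprotein, ran 344, 389.6 and 472 CPM in ALIOS livers, 189.7, 233 and 306 CPM in spontaneous tumours and 195, 239 and 333 CPM in DEN tumours on that diet. Neither tumour group overlapped the livers. In spontaneous tumours its log2 fold was -0.73 (95% interval -0.90 to -0.55, adjusted p = 5.24e-07, 0 of 12 above the liver median). On control diet T17 to T21 held 226, 214, 231, 228 and 206 CPM, again under every control liver (log2 fold -0.77, adjusted p = 5.2e-06). Etfdh, the oxidoreductase that takes the electrons to ubiquinone, fell by -1.14 in spontaneous tumours, -0.83 in DEN tumours on ALIOS diet (adjusted p = 7.87e-06) and -1.28 in DEN tumours on control diet. Its levels were 297, 326 and 397 CPM in ALIOS livers and 139, 172 and 240.5 CPM in DEN tumours on that diet, with no overlap.

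In the peroxisome 7 of 9 members fell in spontaneous tumours, beside 25.9% of all genes, 6 in DEN tumours on ALIOS diet, beside 19.8%, and 3 in DEN tumours on control diet, beside 24.4%, a share near the background. Abcd2 rose in each. Phyh ran 1125, 1439 and 1894 CPM in ALIOS livers and 423, 566 and 817 CPM in spontaneous tumours, without overlap. Its log2 fold was -1.25 (95% interval -1.496 to -0.997, adjusted p = 9.3e-08, 0 of 12 above the liver median). On control diet Phyh went from 1481, 1622 and 1969.9 CPM in livers to 580.2, 545, 802, 739 and 441 CPM in T17 to T21, all far below (log2 fold -1.37, adjusted p = 1.17e-07).

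Hsd17b4 is the main bifunctional enzyme for branched and very long chains, and Abcd3 the transporter that brings branched and dicarboxylic acyl chains into peroxisomes. With Etfdh they were the 3 lower members of smallest p in DEN tumours on ALIOS diet. Hsd17b4 ran 357, 424 and 483 CPM in livers and 159, 205 and 283 CPM in those tumours, a log2 fold of -0.97 (adjusted p = 1.08e-06). Abcd3 ran 566, 861 and 1151 CPM in livers and 204, 353 and 466 CPM in tumours, a log2 fold of -1.19 (adjusted p = 1.62e-05). For both, each of the 8 tumours lay under every liver. Ehhadh fell in spontaneous tumours (-0.85, adjusted p = 0.00791), with medians of 288 and 139.6 CPM and wide overlap, and missed the threshold in DEN tumours on ALIOS diet (-0.53, adjusted p = 0.0605; 0.0392 by DESeq2 and 0.0497 with RLE scaling) and on control diet (-0.69, adjusted p = 0.0868; without N7 -0.77, adjusted p = 0.0416).

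Abcd2, the transporter of very long chain acyl-CoA into the same organelle, went the other way. It ran 17.1, 28.9 and 57.8 CPM in ALIOS livers, 36.5, 129.8 and 177 CPM in spontaneous tumours and 13.99, 131 and 186 CPM in DEN tumours on that diet. Among the DEN tumours T23 and T25, at 13.99 and 27.5 CPM, stayed within or under the liver range, T24 lay just above it at 62.5 CPM and the other 5 were far above it. The log2 fold was 1.78 in spontaneous tumours (95% interval 1.22 to 2.34, adjusted p = 1.03e-05, 12 of 12 above the liver median) and 1.78 in DEN tumours (0.98 to 2.57, adjusted p = 0.000833, 6 of 8 above it). In T17 to T21 Abcd2 reached 204, 175.5, 114, 139 and 93.9 CPM, above every control liver (6.21, 19.7 and 44.4 CPM), a log2 fold of 2.76 (adjusted p = 2.91e-07).

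**Figure D5:**
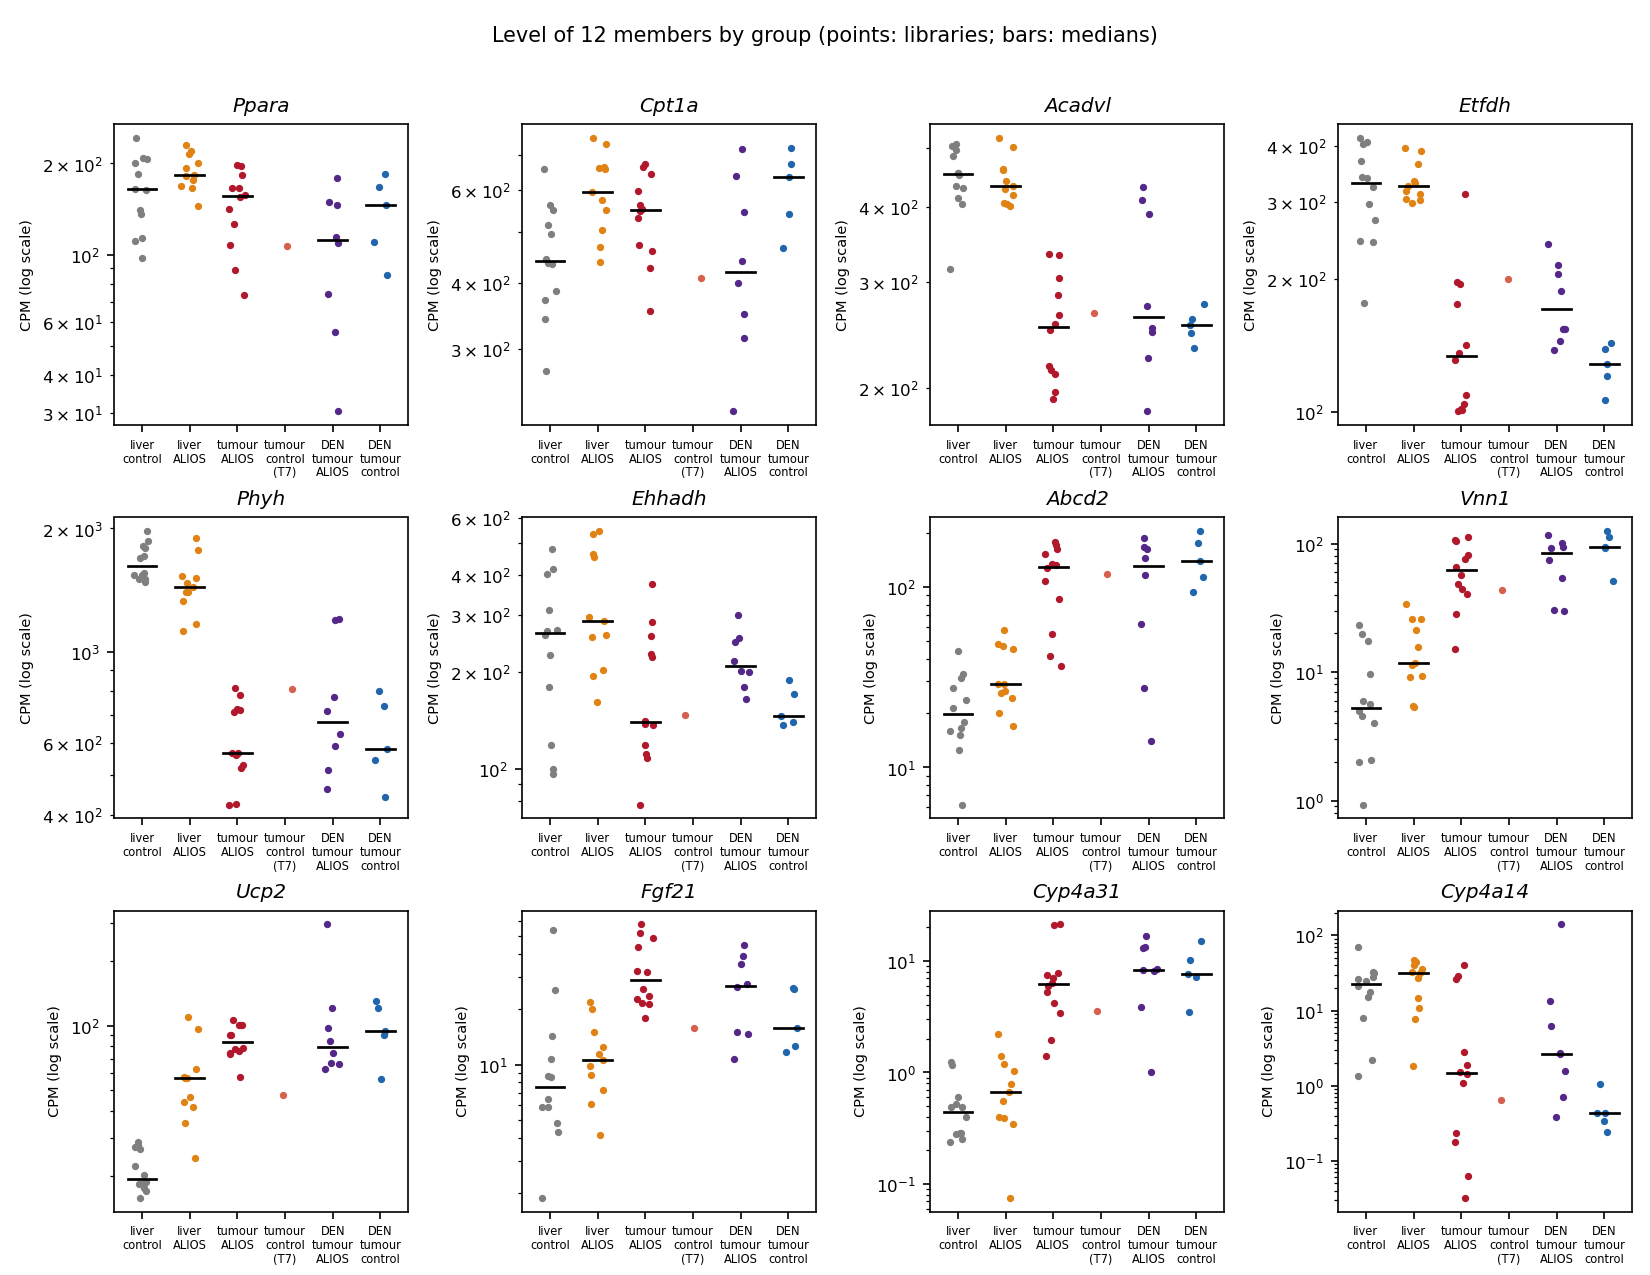
Levels (CPM, log axis) of 12 members in each library, by group, with bars at the medians. Acadvl, Etfdh and Phyh step down from liver to tumour, Abcd2, Vnn1, Ucp2, Fgf21 and Cyp4a31 step up, and Cyp4a14 spreads widest within the 2 tumour groups on ALIOS diet.

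The omega-hydroxylases, which add a hydroxyl group at the far end of the chain, split although they are neighbours in the genome. Cyp4a31 was near the detection limit in liver, at 0.0747, 0.666 and 2.20 CPM on ALIOS diet, and reached 1.40, 6.20 and 21.3 CPM in spontaneous and 1.01, 8.38 and 16.8 CPM in DEN tumours. All 12 spontaneous and all 8 DEN tumours lay above the liver median, with overlap at the lowest tumours. Cyp4a31 rose by a log2 fold of 3.23 (95% interval 2.25 to 4.20, adjusted p = 6.91e-06) and 3.52 (2.52 to 4.52, adjusted p = 9.2e-06). In T17 to T21 it was 10.1, 7.14, 7.67, 15.1 and 3.49 CPM against at most 1.25 CPM in control livers, a log2 fold of 4.06 (adjusted p = 1.76e-08).

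Cyp4a14 was the reverse where it moved. In control livers it ran 1.33, 22.7 and 69.1 CPM, while T17 to T21 held 0.432, 0.239, 1.04, 0.336 and 0.430 CPM. All 5 tumours lay under the lowest liver, a log2 fold of -5.49 (SE 0.83, adjusted p = 2.01e-05). Cyp4a10 fell as well, by -3.13 (adjusted p = 0.000563), from a liver median of 47.5 CPM to between 2.07 and 10.98 CPM. In spontaneous tumours Cyp4a14 ran from 0.0320 to 40.5 CPM with a median of 1.47 CPM, and T2, T6 and T3 (40.5, 29.2 and 26.4 CPM) were near or above the ALIOS liver median of 32.0 CPM. It did not pass there (-1.60, adjusted p = 0.102) but did without those 3 tumours (-4.62, adjusted p = 2.39e-06), and Cyp4a10 passed narrowly (-1.46, adjusted p = 0.0405), a call lost without T9 (-1.34, adjusted p = 0.0525), with T1 put back (0.06), with no filter (0.0620) and in a joint fit (0.0652).

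In DEN tumours on ALIOS diet the same genes turned on T24. It held 521 CPM of Cyp4a10 and 139.8 CPM of Cyp4a14, while the other 7 tumours lay between 5.32 and 44.8 CPM and between 0.386 and 13.5 CPM. With T24 in, the log2 fold was 0.31 for Cyp4a10 (adjusted p = 0.76) and -0.32 for Cyp4a14 (adjusted p = 0.781). Without it both were lower than in liver, Cyp4a10 by -1.96 (adjusted p = 0.00225) and Cyp4a14 by -2.70 (adjusted p = 0.00248), and DESeq2 with T24 in gave -1.72 for Cyp4a10 (adjusted p = 0.000392). T24 was also the tumour with the lowest hepatocyte marker sum of its group, 86657 CPM, and the highest stellate and fibroblast sum, 955 CPM, whose part was not tested.

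The thioesterases had lower RNA in tumours in part. Acot1 fell in spontaneous tumours (-1.29, adjusted p = 0.0143), from a liver median of 7.01 to 2.92 CPM with overlapping ranges. In DEN tumours on control diet it fell by -1.69 (adjusted p = 0.0222), at 1.29, 0.628, 2.35, 1.01 and 0.227 CPM against a liver median of 2.96 CPM, a call lost without T18 or T21 (adjusted p 0.0569 and 0.0514). Acot3 and Acot4 fell in DEN tumours on ALIOS diet, Acot3 by -3.01 (adjusted p = 0.00314), from a liver median of 21.9 to 1.23 CPM. Acot2 rose in DEN tumours on control diet (1.18, adjusted p = 0.0282), a call lost without T17, T18 or T20 (adjusted p 0.0532, 0.0684 and 0.0657). Bdh1, which interconverts the ketone bodies, did not pass in spontaneous tumours (0.15, adjusted p = 0.217; 0.28 and 0.0125 without T2, T3 and T6) and rose in DEN tumours on ALIOS diet (0.38, adjusted p = 0.0305, lost at 0.0503 with RLE scaling, 0.0893 with no filter and 0.0553 in a joint fit) and on control diet (0.55, adjusted p = 0.00822).

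Of the remaining responsive genes, Vnn1 rose most. It ran 5.31, 11.7 and 33.7 CPM in ALIOS livers, 15.1, 61.7 and 113 CPM in spontaneous tumours and 29.9, 83.9 and 117 CPM in DEN tumours on that diet. The lowest tumours overlapped the highest livers, and every tumour lay above the liver median. Vnn1 rose by a log2 fold of 2.04 (95% interval 1.34 to 2.74, adjusted p = 3.22e-05) and 2.29 (1.54 to 3.03, adjusted p = 4.23e-05). T17 to T21 held 113, 125, 94.2, 92.4 and 50.9 CPM, above every control liver (0.928, 5.29 and 23.1 CPM), a log2 fold of 3.55 (adjusted p = 1.2e-05).

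Ucp2 was high in tumours on either diet. On control diet T17 to T21 held 130.4, 94.8, 90.8, 121 and 56.1 CPM, all above the livers (15.7, 19.4 and 28.6 CPM), a log2 fold of 2.25 (95% interval 1.90 to 2.60, adjusted p = 1.88e-09). On ALIOS diet, where liver Ucp2 was itself higher, spontaneous tumours ran 57.3, 84.3 and 106 CPM (log2 fold 0.58, adjusted p = 0.011) and DEN tumours 62.7, 79.7 and 296 CPM (0.97, adjusted p = 0.0131), with T24 highest, and without T24 the log2 fold was 0.57 (adjusted p = 0.0492). Fabp1 fell in both tumour groups on ALIOS diet, in spontaneous tumours not with T1 put back (adjusted p = 0.0547). Pdk4 did not pass in spontaneous tumours (0.17, adjusted p = 0.635) but rose in DEN tumours on ALIOS diet (1.15, adjusted p = 0.0194), a call lost without T24 (0.82, adjusted p = 0.0627) and without T23, T24 and T25 (0.52, adjusted p = 0.262).

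Some tumours stood lower or higher across roles. T11 had the lowest level of the 12 spontaneous tumours in 16 members and T6 the highest in 14. T26 was lowest of 8 DEN tumours on ALIOS diet in 15 members, while T23 and T25 kept Phyh within the ALIOS liver range, at up to 1205 CPM, and had the lowest Vnn1, 29.9 and 30.6 CPM. T21 was lowest of the 5 DEN tumours on control diet in 26 of 41 members. Without T23, 24 members fell and 7 rose in DEN tumours on ALIOS diet, against 3289 and 4009 of 14521 genes.

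Tumours T2, T3 and T6 among the spontaneous and T23, T24 and T25 among the DEN tumours on ALIOS diet also stood apart in 2 marker sums. Their hepatocyte and macrophage sums lay nearer to non-tumour liver. Their hepatocyte sums were 87375, 132537 and 96457 CPM in T2, T3 and T6, against a group median of 197788 and a liver median of 114953 CPM, and their macrophage sums 609, 485 and 564 CPM, against 201 and 543 CPM. In T23, T24 and T25 the hepatocyte sums were 92058, 86657 and 107613 CPM, against a group median of 193847 CPM, and the macrophage sums 706, 677 and 389 CPM, against 303 CPM. T26, outside this set, had a macrophage sum of 387 CPM, close to that of T25, but a hepatocyte sum of 182534 CPM. Not all marker lists lay nearer to liver. In T24 the stellate and fibroblast sum was 955 CPM, above the highest ALIOS liver at 527 CPM. Its endothelial sum was 105 CPM, below the lowest ALIOS liver at 168 CPM. The study's legend to its clustering places T6 with the non-tumour livers. What part this has in the members' levels was not tested, but the comparisons were repeated without these tumours, a choice made after the values were seen. Without T2, T3 and T6, 28 members fell and 6 rose in spontaneous tumours, against 4057 and 4724 of 14245 genes, with a median log2 fold of -0.75. Without T23, T24 and T25, 30 members fell and 6 rose in DEN tumours on ALIOS diet, against 4671 and 4806 of 14769 genes, with a median of -0.87. Cyp4a14 (-4.01, adjusted p = 6.32e-05), Cyp4a10 (-2.86, adjusted p = 4.08e-05) and Acot1 (-2.53, adjusted p = 0.00142) were then among those that fell.

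T7, the spontaneous tumour on control diet, had no replicate and no test: 5 members lay above every control diet liver (Abcd2, Cyp4a31, Bdh1, Vnn1 and Ucp2), 14 below and 22 within their range, counts from which nothing is read, since the same was not counted over all genes.

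No member was shown to differ between DEN tumours and spontaneous tumours on ALIOS diet. edgeR called 0 of 41 higher and 0 lower, where 0% of all 14845 genes were called in either direction. At an unadjusted p under 0.05 there were 2 members, Pdk4 and Acot4, and 1079 genes, and DESeq2 called 0 members and 86 genes. The median log2 fold was 0.03 over members and 0.00 over all genes. A missed threshold with 8 and 12 samples does not show the groups to be alike, and the signs of Cyp4a14 and Cyp4a10 rested on T24, at -1.15 and -0.57 without it.

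The diet within DEN tumours, 8 on ALIOS diet against 5 on control diet, left all members short of the threshold too. edgeR called 0 of 41 members higher and 0 lower, where 0% of all 14944 genes were called higher and 0.0134% lower. An unadjusted p under 0.05 was reached by 7 members and 1273 genes, and DESeq2 called 2 members and 152 genes. Those 2 were Cyp4a14 (log2 fold 2.89, adjusted p = 0.00855) and Pdk4 (1.68, adjusted p = 0.00881), with edgeR log2 folds of 5.42 (adjusted p = 0.344, and 0.0441 in a joint fit; 2.99 and 0.168 without T24) and 1.68 (adjusted p = 0.238). Pdk4 ran 7.31, 18.1 and 53.8 CPM on ALIOS diet, against 9.50, 7.29, 5.39, 6.25 and 5.79 CPM on control diet. All ALIOS tumours but T22 lay above every control diet tumour.

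The diet effect differed between DEN tumours and liver for 1 member, Cyp4a14. In this test of the difference edgeR called 1 of 41 members higher, where 1.04% of all 15606 genes were, and 0 lower, where 1.23% were, with 10 members and 2617 genes at an unadjusted p under 0.05, and by DESeq2 2 members higher and 2 lower, against 321 and 335 of 16524 genes. Cyp4a14 had a difference in log2 fold of 5.20 (95% interval 2.41 to 8.00, adjusted p = 0.0358), made of 5.42 in DEN tumours and 0.20 in liver, with 7 of 8 ALIOS tumours above the control tumour median. The call was lost without T24, where the difference fell to 2.78 (adjusted p = 0.103). It was also lost in a joint fit (5.19, adjusted p = 0.089) and without T17, T18, T20 or T21 (adjusted p 0.0795, 0.0769, 0.0842 and 0.0557). Without each of those control diet tumours the difference stayed at 5.16, 5.03, 5.09 and 5.15. Ucp2 had a difference of -1.27 that did not pass (adjusted p = 0.07), but passed without T24 (-1.68, adjusted p = 0.00329), without T21 (0.0446), in a joint fit (0.0485) and by DESeq2 (0.039). Acot2 passed without T24 (-2.16, adjusted p = 0.0451), Creb3l3 without T21 (0.0433) and by DESeq2 (0.0364), and Cyp4a10 by DESeq2 (3.45, adjusted p = 0.0241).

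Of 56 other genes of lipid handling, 55 were in the table, and more of them fell than rose in each tumour group. In spontaneous tumours 37 of 55 fell and 5 rose (25.9% and 26.9% of all genes), with a median log2 fold of -0.58. Scp2, the sterol and fatty acyl carrier of peroxisomes, fell by -1.29, and Slc27a5, a bile acid and fatty acid ligase of liver, by -1.61, while Plin2, which coats lipid droplets, rose by 0.98 and the arachidonate ligase Acsl4 by 1.05. DEN tumours on ALIOS diet had 29 lower (19.8% of all genes), with the smallest p for the dehydrogenases Acad10 (-1.26) and Acad11 (-0.86). In the same tumours 5 were higher (27.7%), with the smallest p for Plin2 (1.05) and the related receptor Ppard (1.09). In DEN tumours on control diet 26 fell (24.4% of all genes), with Pecr, a peroxisomal reductase, at -2.35 and Slc27a5 at -1.72, and 8 rose (27.3%), with Acsl4 at 1.58 and Plin2 at 1.91. With the diet in liver 8 of 55 rose and 0 fell in edgeR (6.73% and 4.51% of all genes), among them Pparg, the receptor of fat storage, at 4.04 (adjusted p = 0.000557). Between DEN and spontaneous tumours, and between diets in DEN tumours, 0 of 54 passed in edgeR.

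In the test of the diet difference between DEN tumours and liver, Hacl1 of the same list, which splits phytanic acid further, had 1.40 (adjusted p = 0.022, lost at 0.0536 in a joint fit). Pparg had -3.13 (adjusted p = 0.034, lost without T17 or T18 at 0.0763 and 0.0748).

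Markers of the cell types in liver moved beside the members, and their part was not tested. Over all genes 27.3% rose and 24.4% fell in DEN tumours on control diet, and 27.7% and 19.8% in those on ALIOS diet. The shares were 26.9% and 25.9% in spontaneous tumours and 6.73% and 4.51% for diet in liver. Several of the counts below lie near these shares. Among DEN tumours on control diet 5 of 8 stellate and fibroblast markers rose and 2 fell (median log2 fold 1.27), 4 of 8 endothelial markers rose and 2 fell, 5 of 10 macrophage markers fell, and 3 of 10 hepatocyte markers rose and 3 fell. On ALIOS diet, 3 of 8 stellate and fibroblast markers rose and 2 fell in DEN tumours, 3 of 8 endothelial markers rose and 1 fell, 2 of 10 macrophage markers fell, and 3 of 10 hepatocyte markers rose and 3 fell. Of 10 hepatocyte markers 0 passed for diet in liver, and 3 rose and 4 fell in spontaneous tumours, while their sum, mostly Alb, went from a median of 114953 CPM in ALIOS livers to 197788 CPM. Of 10 macrophage markers 8 rose with the diet in liver (summed medians 341.7 and 543 CPM) and 9 fell in spontaneous tumours (201 CPM), with Cd5l the most abundant. The diet in liver also went with higher levels of 3 of 5 lymphocyte, 2 of 5 cholangiocyte and 2 of 8 stellate and fibroblast markers tested, with none lower. The summed medians in ALIOS livers and spontaneous tumours were 228 and 221 CPM for endothelial markers, led by Stab2, and 239.8 and 180.3 CPM for stellate and fibroblast markers, led by Dcn. Of 8 endothelial markers 3 rose and 1 fell in spontaneous tumours, and of 8 stellate and fibroblast markers 2 rose and 2 fell, with a median log2 fold of 0.36. Cholangiocyte markers, led by Spp1, had 46.6 and 73.0 CPM with 1 of 5 tested higher, lymphocyte markers, led by Cd4, 8.21 and 5.63 CPM, and erythroid markers, led by Alas2, 138 and 61.6 CPM. Tissues outside liver were low: adipocyte markers summed to 17.4 and 12.6 CPM, nearly all Lipe, with Adipoq, Lep, Retn, Ucp1 and Cfd at a median count of 0. Kidney tubule markers had 1.12 and 4.86 CPM, with Kap, Umod, Slc34a1, Aqp2 and Cdh16 at a median count of 0, and striated muscle markers had 0.0367 and 0 CPM. Pancreas markers had 41.9 and 48.1 CPM, nearly all Cela1, with Cpa1, Pnlip, Amy2a5 and Ctrb1 at a median count of 0. The members themselves summed to 17730 CPM in ALIOS livers and 10362 CPM in spontaneous tumours.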

How the data were processed

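Poly(A) RNA of 50 liver and tumour samples was sequenced as stranded paired-end reads, and the deposited table holds raw read counts per gene. The authors aligned reads with STAR in 2-pass mode to mm10 and counted exons with HTSeq against Gencode M6, in the mode intersection-nonempty. Versions and the strand option were not stated. Rows were joined to members by symbol, taken from the table for 23214 rows and from a gene name table for 22132 more.

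Samples were grouped by tissue, diet and DEN into 6 groups. T1 was left out for its kidney transcripts, and T7 was described without a test. The sequencing order is not in the labels. Genes were filtered by expression within each comparison, scaled by TMM and tested with the edgeR 4.0.16 quasi-likelihood F test (limma 3.58.1, R 4.3.3). Only the samples of a comparison entered its fit, and the diet difference used 4 groups. p-values were adjusted over all genes tested by the Benjamini-Hochberg method and called under 0.05. The standard error was the log2 fold over the square root of F, and 95% intervals used the t distribution. Replicates are tissue samples, and p-values refer to the spread between them. Correlations used 100000 permutations. Python 3.11.15 with numpy 2.4.6, pandas 2.3.3, scipy 1.17.1 and matplotlib 3.10.9 made summaries and figures. The fit was tested on simulated data.

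At the lowest total, 23798251 reads, a gene at 1 CPM still has over 20 reads, and the spread between samples exceeds counting error for most members. Members with a median under 1 CPM, such as Cyp4a31 in liver (0.446 CPM on control and 0.666 CPM on ALIOS diet), are less precise.

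The 41 members, the 10 roles, the 56 other pathway genes and the 11 marker lists (hepatocyte, macrophage, endothelial, stellate and fibroblast, cholangiocyte, lymphocyte, erythroid, adipocyte, kidney tubule, pancreas acinar, striated muscle) were chosen with earlier results of these data known. The rule named up to 3 called members of smallest p per direction in each comparison, and up to 2 such other pathway genes. It also named Ppara, Cpt1a, Cyp4a14, Cyp4a10, Ehhadh, Acot1, Fgf21, Pdk4 and Vnn1 in every comparison. Not every value of the genes so named is given here. Values of other members, such as Acot2, Acot3, Bdh1 and Ppargc1a, were added after they had been seen.

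Alternatives were DESeq2 1.42.0, RLE scaling, no filter, all groups in a joint fit, T1 put back, and leaving out T9, T24 or each control diet DEN tumour. Leaving out T23, N7, N12, T2 with T3 and T6, or T23 with T24 and T25 was added after the data were seen.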

Additional observations from a re-analysis of the deposited data

Results flagged for a closer look

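A search of 82 groups of values for a library far from the rest found 6, where chance flags about 1 in 20 groups, 4.1 of them. The search used log levels of the 41 members in the DEN tumours of each diet. Livers and spontaneous tumours were not part of it. T24 was far above the other DEN tumours on ALIOS diet for the isomerase Eci2 (305.953 CPM), for Cyp4a10 (520.662 CPM) and for Ucp2 (296.089 CPM). T21 was far below the other DEN tumours on control diet for the carnitine carrier Slc25a20 (69.1056 CPM), for Eci2 (85.8133 CPM) and for Acot3 (0.328593 CPM). The diet effect on Cyp4a14 differed between DEN tumours and liver by a log2 fold of 5.20, and by 2.78 without T24. The call was also lost without T17, T18, T20 or T21, where the difference stayed between 5.03 and 5.16. T1, labelled a liver tumour, held 29768.5 CPM of kidney tubule markers and entered only the alternatives with T1 put back. T7, without a replicate, lay above every control diet liver for Abcd2 (117.671 CPM), Cyp4a31 (3.56403 CPM), Bdh1 (457.861 CPM), Vnn1 (43.5863 CPM) and Ucp2 (47.2672 CPM). In T7 14 other members lay below every control diet liver, and 22 lay within their range. The cause of these values was not tested.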

How the results depend on the processing

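Of 860 single-gene values under other settings 796 were the same, 13 stronger, 42 weaker and 9 reversed, and 19 of 41 levels per length moved with exon unions. For diet in liver the members higher went from 4 to 2 with no filter, 2 in a joint fit 2 without N7 and 2 without N12, members lower from 0 to 1 by DESeq2, and genes from 1542 to 2459 by DESeq2 and 623 in a joint fit. Between DEN and spontaneous tumours genes went from 0 to 86 by DESeq2 and 403 in a joint fit. For diet in DEN tumours members higher went from 0 to 2 by DESeq2 and 1 in a joint fit, and genes from 2 to 152 by DESeq2, 1 with no filter, 296 in a joint fit, 14 without T24, 0 without T23 and 0 to 1 with each control tumour left out. For the diet difference members higher went from 1 to 2 by DESeq2, 0 in a joint fit, 0 without T24 and 0 to 1 with each control tumour left out, members lower from 0 to 2 by DESeq2, 1 in a joint fit, 2 without T24 and 0 to 2 with each left out, and genes from 354 to 656 by DESeq2, 220 in a joint fit, 732 without T24 and 174 to 446 with each left out. Signs reversed for Fgf21 with diet in liver, 0.38 without N12, and for Cyp4a10 in DEN tumours against ALIOS livers, -1.72 by DESeq2, -1.96 without T24 and -2.86 without T23, T24 and T25. Against spontaneous tumours they reversed for Cyp4a14, -0.55 and -1.15, Cyp4a10, -0.57 and -0.57, and Acot1, -0.17 without T24. The cause was not tested. Leaving out T23, N7, N12, T2 with T3 and T6, or T23 with T24 and T25 was added after seeing the data. No paired analysis was possible because liver and tumour numbers run separately and the labels do not say which came from the same mouse.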
